A study of Homo sapiens with 5 samples.

Results

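Seven-pass membrane receptors for transmitters and peptides were followed across 5 RNA-seq libraries of the human osteosarcoma line U2OS. The set holds 7 genes, DRD5, HTR2A, CHRM2, NTSR1, GPR12, GPR26 and GRM2, of 27992 gene names with read counts. They were chosen by their own readout, for large rises with YFP or, for HTR2A, a fall with YFP, and the rule set no numeric threshold. Their levels across the YFP fractions are therefore given as a description. The parental library came from U2OS cells without the construct. The other 4 libraries came from U2OS cells with pTRIPZ-YFP-ER-E2F1, a doxycycline-inducible vector in which the transcription factor E2F1 is fused to YFP and to the hormone-binding part of the oestrogen receptor, which OHT activates. Flow cytometry parted these cells by YFP brightness into a high, a medium, a low and a negative gate, so the YFP-negative cells carry the construct too. For all 5 libraries, parental included, the labels give 500 ng/ml doxycycline over 48 h, 90 nM OHT added for a further 20 h, and medium containing 8% serum. Each group is 1 library, so no value has a replicate check, no test was made, and the intervals below cover counting error only. Whether the line is 1 clone, whether the fractions came from 1 culture, and whether the parental cells were sorted, is not stated by the labels. In bulk RNA, a change in the share of cells that express a gene and a change in RNA per cell cannot be told apart.

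These receptors sit in the plasma membrane and, once a transmitter or peptide binds outside, switch on a G protein inside. Receptors coupled to the stimulatory G protein raise cyclic AMP through adenylyl cyclase, those coupled to inhibitory G proteins lower it, and those coupled to Gq-type proteins activate phospholipase C and release calcium. Receptor kinases, arrestins and RGS proteins shut the signal off. The receptors described here are best known from neurons and, for CHRM2, from the heart, and none is a standard marker of bone-forming cells.

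The windows of 4 genes around their annotated starts are shown because they span the patterns below. DRD5 climbed at every YFP gate and is the only gene of the set with letters of an E2F core in its window, which are in capitals. GPR12 had the highest level in YFP-high, and NTSR1 was abundant in YFP-high alone; their GC boxes are in capitals. HTR2A, the gene that was lower, had neither motif and has no capitals. Each window holds 250 bases before and 50 after the start, from RefSeq with build GRCh38.p14, in the direction of transcription.
DRD5, chr4:9781384-9781683, plus strand: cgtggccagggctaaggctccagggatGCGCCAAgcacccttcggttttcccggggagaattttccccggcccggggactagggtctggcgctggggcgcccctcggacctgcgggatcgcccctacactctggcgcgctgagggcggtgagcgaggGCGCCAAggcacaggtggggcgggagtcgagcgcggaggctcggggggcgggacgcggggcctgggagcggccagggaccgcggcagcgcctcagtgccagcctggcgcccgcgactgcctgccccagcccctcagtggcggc
GPR12, chr13:26760737-26761036, minus strand: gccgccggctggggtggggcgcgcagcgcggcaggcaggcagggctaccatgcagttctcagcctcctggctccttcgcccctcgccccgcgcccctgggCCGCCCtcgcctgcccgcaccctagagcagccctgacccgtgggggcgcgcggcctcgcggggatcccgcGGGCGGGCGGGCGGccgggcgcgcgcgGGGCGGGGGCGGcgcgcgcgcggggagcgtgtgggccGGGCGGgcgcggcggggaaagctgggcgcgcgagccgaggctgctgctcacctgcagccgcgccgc
NTSR1, chr20:62708586-62708885, plus strand: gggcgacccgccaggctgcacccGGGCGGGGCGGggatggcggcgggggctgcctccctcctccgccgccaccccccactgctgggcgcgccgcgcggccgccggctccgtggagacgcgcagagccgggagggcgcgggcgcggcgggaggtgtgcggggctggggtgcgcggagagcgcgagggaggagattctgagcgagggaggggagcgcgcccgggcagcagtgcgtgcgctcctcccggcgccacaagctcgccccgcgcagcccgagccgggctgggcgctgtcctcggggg
HTR2A, chr13:46898033-46898332, minus strand: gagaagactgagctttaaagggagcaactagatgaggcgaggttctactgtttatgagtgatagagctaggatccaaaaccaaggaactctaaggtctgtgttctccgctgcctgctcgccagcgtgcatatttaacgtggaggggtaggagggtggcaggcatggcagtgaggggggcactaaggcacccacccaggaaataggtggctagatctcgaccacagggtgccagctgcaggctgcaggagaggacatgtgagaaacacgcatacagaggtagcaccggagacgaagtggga

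Depth was even, at 70.7 M to 76.5 M gene reads per library. Levels are CPM, reads per 1000000 gene reads after scaling by the trimmed mean of M values (TMM), and 3 reads, the floor used for genes without reads, equal 0.0360 to 0.0469 CPM. E2F1 followed the gates, with 86.1, 106, 163, 361 and 996 CPM going from parental through the YFP-negative, low and medium gates to YFP-high. Its reads may come from the construct or from the cell's own gene. The bone-lineage markers COL1A1, SPARC, RUNX2, ALPL, MSX2 and VIM passed the filter, whereas COL1A2 and SP7 stayed under 1 CPM in every library. The summed level of the 8 bone-lineage markers was 6194 CPM in parental and 3135 to 3613 CPM in the sorted fractions. Of 12 neuronal markers, 7 passed the filter, and 0 were called higher and 0 lower in YFP-high against YFP-negative. Of all analysed genes 20.5% were called higher and 11.3% lower in that comparison. NEFL, a neurofilament gene among the 7, went from 45.1 to 90.3 CPM and fell just short of the rule for a call given below. STMN2, NEFM, ELAVL3, ELAVL4 and DCX stayed under 1 CPM in all 5 libraries. The summed neuronal markers were 285, 199, 172, 156 and 250 CPM from parental to YFP-high. Summed glial markers lay between 4.58 and 12.4 CPM, leukocyte markers between 11.5 and 31.1, epithelial markers between 454 and 572, and endothelial markers between 4.09 and 6.26. The leukocyte sum was highest in YFP-high. PTPRC, CD3E and CD14 were under 1 CPM in every library, and CORO1A and LCP1 carried nearly all of the sum. Single markers of these lists were called in YFP-high against YFP-negative, to be set beside the same shares of all genes. MSX2 (bone lineage) was at 9.47 CPM in YFP-negative and 45.7 in YFP-high, CORO1A (leukocyte) at 4.09 and 15.1, and EPCAM (epithelial) at 3.27 and 11.5. KDR (endothelial) was at 0.0360 and 1.88, and passed the filter through YFP-high alone. OLIG2 (glial) was lower, at 11.7 and 4.27, and so was ROBO4 (endothelial), at 5.06 and 1.89. The part of the other cell types' markers in the receptor differences was not tested.

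A call of higher or lower required that the log2 ratio of CPM + 0.5 be at least 1 or at most -1 and that the exact 95% counting interval of the fold leave out no change. The rule ran on the 15109 genes that reached 1 CPM in 1 or more libraries, and 7 of the 7 receptors passed that filter. CHRM2, NTSR1 and GPR26 passed it through YFP-high alone, so a higher level there was a condition of their being analysed. The receptors called higher than in YFP-negative numbered 2, 3 and 6 at the low, medium and high gates, where 2.11%, 9.76% and 20.5% of all analysed genes were. HTR2A was called lower in each of the 3 fractions, where 0.0463%, 2.21% and 11.3% of all analysed genes were. These counts follow from how the genes were chosen.

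**Figure D1:**
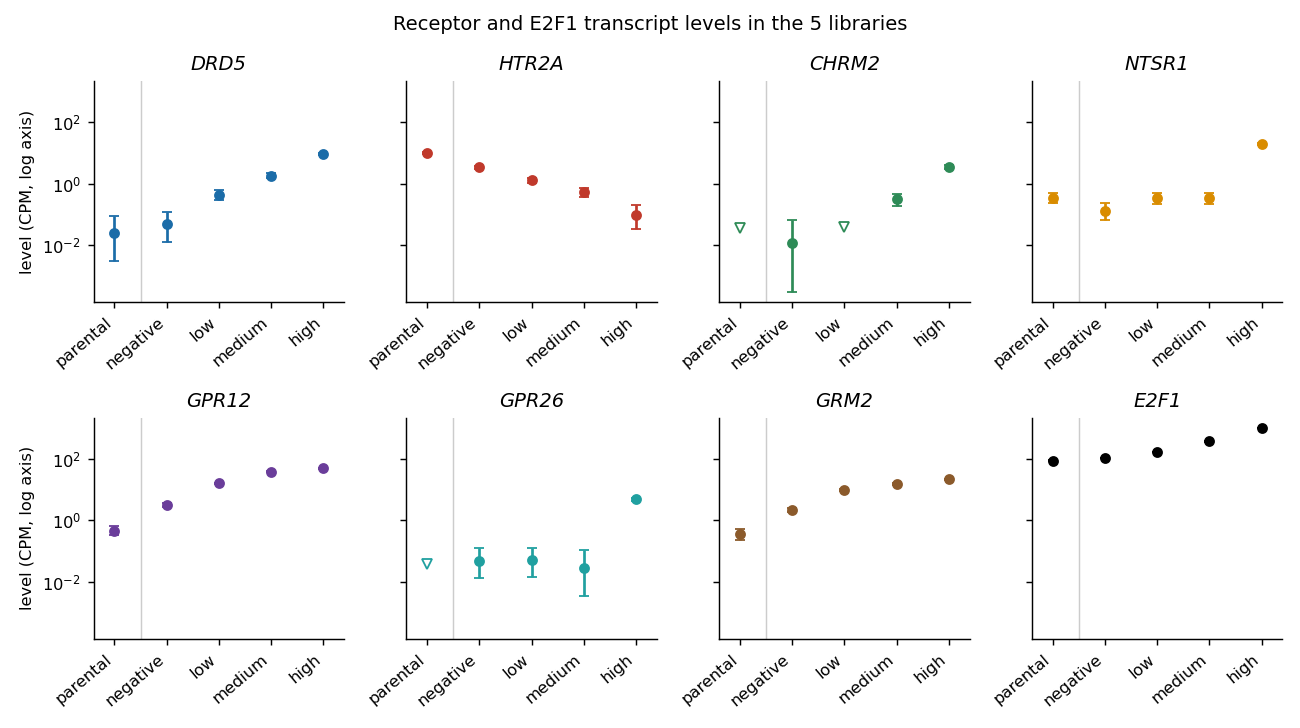
Level of each receptor and of E2F1 (CPM, log axis) in the 5 libraries, 1 point per library, with exact 95% counting intervals. Open triangles mark libraries with 0 reads and are drawn at the 3-read floor. GPR12, GRM2 and DRD5 climb gate by gate, CHRM2 appears in YFP-medium and YFP-high, NTSR1 and GPR26 stand out in YFP-high, and HTR2A descends from parental to YFP-high.

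DRD5, GPR12 and GPR26 raise cyclic AMP. DRD5 encodes a dopamine receptor coupled to the stimulatory G protein. From parental through the gates to YFP-high it had 2, 4, 34, 125 and 599 reads, or 0.0254, 0.0480, 0.439, 1.84 and 9.37 CPM. The counting intervals of parental and YFP-negative overlapped, and those of the 3 YFP-positive fractions lay apart from them and from each other. Against YFP-negative the fold was 38.5 in YFP-medium (14.7 to 143) and 195 in YFP-high (75.9 to 720), and the log2 ratios were 2.10 and 4.17. At the low gate the ratio was 9.16 (3.27 to 35.5), but from so few reads that the log2 ratio of 0.78 missed the size rule. DRD5 was 4.20-fold higher in YFP-medium than in YFP-low (2.85 to 6.33) and 5.08-fold higher in YFP-high than in YFP-medium (4.18 to 6.21).

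The reads given to DRD5 carry an uncertainty. Its transcript is 94.4% identical to the pseudogene DRD5P1 over 1439 bases, 94.6% identical to DRD5P2 over 1725 bases, and 95.4% identical to AC239859.4 over 675 bases, of 2330 in all. None of these copies has a row of its own in the count table, so reads of a copy placed at DRD5 would be counted as DRD5. The 599 reads of DRD5 in YFP-high could hold some of them, which was not tested. GPR12 has a shorter match, 90.9% identical to C17orf113 over 286 of 4850 bases, and that gene has no row of its own either.

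GPR12 encodes an orphan receptor that raises cyclic AMP without an added ligand. Its reads in the same order were 37, 263, 1233, 2547 and 3157, or 0.469, 3.15, 15.9, 37.6 and 49.4 CPM. No neighbouring counting intervals overlapped. GPR12 was 5.05-fold higher in YFP-low than in YFP-negative (4.42 to 5.80), the 6th highest log2 ratio of the 15109 genes. The fold was 11.9 in YFP-medium (10.5 to 13.6) and 15.7 in YFP-high (13.8 to 17.8), so most of the difference was present below the top gate. Its log2 ratio ranked 19th in YFP-medium and 142nd in YFP-high. The last step, from YFP-medium to YFP-high, was 1.31-fold (1.25 to 1.39), while E2F1 was 2.76-fold higher across it (2.72 to 2.80).

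GPR26 encodes another orphan receptor that raises cyclic AMP on its own. It had 0, 4, 4 and 2 reads from parental up to YFP-medium, and 313 reads in YFP-high, equal to 4.90 CPM. The other 4 libraries were at 0.0517 CPM or below with overlapping intervals, close to the floor. In YFP-high it was 102-fold higher than in YFP-negative (39.5 to 377). Against the 2 reads in YFP-medium the ratio was 166 (45.6 to 1377). The level in YFP-high was the only one at which this gene could be measured.

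Both receptors that lower cyclic AMP were higher in YFP-high, but along different courses. CHRM2 encodes the muscarinic acetylcholine receptor through which the vagus nerve slows the heart. Parental and YFP-low cells had 0 reads and YFP-negative cells 1, against 21 (0.310 CPM) at the medium and 219 (3.43 CPM) at the high gate. The first 3 libraries were indistinguishable at this depth, and YFP-medium and YFP-high stood above them and apart from each other. The ratio of YFP-high to the 1 read of YFP-negative was 286 (50.8 to 11342), with a log2 ratio of 2.94. That of YFP-medium to the same read was 25.8 (4.16 to 1069), with a log2 ratio of 0.66 that missed the size rule. From YFP-medium to YFP-high CHRM2 was 11.1-fold higher (7.06 to 18.2).

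GRM2 encodes a metabotropic glutamate receptor that restrains transmitter release at synapses. Reads numbered 28, 178, 748, 1041 and 1377 from parental to YFP-high, or 0.355, 2.13, 9.67, 15.4 and 21.5 CPM, and no neighbouring intervals overlapped. GRM2 was 4.53-fold higher in YFP-low than in YFP-negative (3.84 to 5.37), the 12th highest log2 ratio of the 15109 analysed genes. The fold was 7.20 in YFP-medium (6.13 to 8.49) and 10.1 in YFP-high (8.63 to 11.9), where its log2 ratio ranked 96th and 354th. The steps became smaller, at 1.59-fold from YFP-low to YFP-medium (1.45 to 1.75) and 1.40-fold from YFP-medium to YFP-high (1.29 to 1.52).

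Of the receptors coupled to phospholipase C, NTSR1 was higher in YFP-high and HTR2A lower. NTSR1 encodes the main receptor of neurotensin, a gut and brain peptide. From parental to YFP-high the reads were 28, 11, 26, 23 and 1236, or 0.355, 0.132, 0.336, 0.339 and 19.3 CPM. YFP-high stood far above the rest, parental, YFP-low and YFP-medium had overlapping intervals, and the interval of YFP-negative only just reached theirs. NTSR1 was 57.0-fold higher in YFP-high than in YFP-medium (37.8 to 90.2), the 2nd highest log2 ratio of the 15109 genes in that comparison, at 4.56. Between YFP-medium and YFP-low the ratio was 1.01 (0.551 to 1.84), while E2F1 was 2.21-fold higher across that step (2.17 to 2.26). Against YFP-negative, the library with the fewest NTSR1 reads, the fold was 147 (81.7 to 295), and against parental it was 54.5 (37.5 to 82.3).

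HTR2A encodes the serotonin receptor on which psychedelic drugs act. Its reads went down from 803 in parental cells through 283, 99 and 36 to 6 in YFP-high, or 10.2, 3.39, 1.28, 0.531 and 0.0939 CPM. Every library was below the one before it, and no neighbouring intervals overlapped. Against YFP-negative the level was 2.65-fold lower in YFP-low (2.10 to 3.37), 6.39-fold lower in YFP-medium (4.50 to 9.30) and 36.1-fold lower in YFP-high (16.4 to 99.3). In YFP-low this was the 3rd lowest log2 ratio of the 15109 genes, in YFP-medium the 2nd lowest and in YFP-high the 8th lowest. From YFP-medium to YFP-high the fold was 5.66 (2.36 to 16.4) with a log2 ratio of -0.80, which missed the size rule because both levels were near the pseudocount.

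Set against E2F1, the receptors followed several courses. GPR12 and GRM2 had reached 57.5% and 63.6% of their YFP-high log2 ratio in YFP-low, and 89.7% and 84.5% in YFP-medium. The 3090 genes called higher in YFP-high had medians of 19.9% and 52.7%, and E2F1 itself 19.2% and 54.7%. DRD5 had reached 18.6% and 50.3%, but 31.1% and 61.9% with a pseudocount of 0.1 CPM and 10.2% and 36.7% with 2 CPM. CHRM2 had reached 22.5% and NTSR1 8.24% in YFP-medium, where GPR26 had too few reads for a share. HTR2A had reached 41.6% of its decrease in YFP-low and 70.7% in YFP-medium, against medians of 20.1% and 51.2% for the 1707 genes called lower. With 0.1 CPM its shares were 32.1% and 59.2%, against a median of 19.7% in YFP-low, and with 2 CPM 52.6% and 80.0%. The shares of GPR12 and GRM2 stayed between 54.2% and 65.0% in YFP-low under these settings, which for the shares and steps were chosen after seeing the data. The pseudocount compresses differences among the lowest levels.

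**Figure D2:**
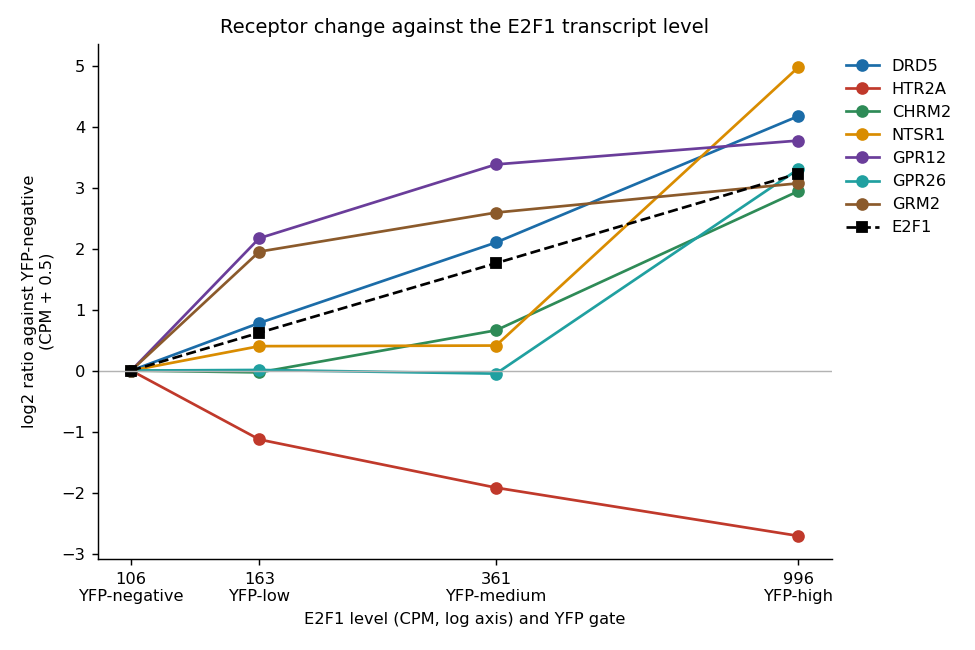
Log2 ratio against YFP-negative (CPM + 0.5) of each receptor, and of E2F1 as black squares, plotted on the E2F1 level of the 4 sorted fractions (CPM, log axis). GPR12 and GRM2 flatten toward YFP-high, NTSR1 and GPR26 stay near 0 until YFP-high, and HTR2A goes down from the first step.

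On the same scale, the largest of the 3 steps was the step from YFP-negative to YFP-low for GPR12, GRM2 and HTR2A, a step that was the largest for 20.6% of the genes called higher and 7.38% of those called lower. For HTR2A this turns: with 0.1 CPM its log2 steps were -1.34, -1.13 and -1.70, so the last was the largest. For DRD5, CHRM2, NTSR1 and GPR26 it was the step from YFP-medium to YFP-high, as for 59.3% of the genes called higher. Between YFP-high and YFP-medium those 4 receptors were called higher, with 9.25% of all analysed genes, and 0 receptors were called lower, with 1.33%. With a filter of 5 CPM only DRD5 and NTSR1 remained among the 4, since CHRM2 and GPR26 then fell below the filter.

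The authors' TPM, a unit corrected for transcript length, allow levels to be compared between genes. In YFP-high the deposited TPM ran from GPR12 at 24.6 through GRM2 at 15.3, NTSR1 at 11.5, DRD5 at 10.4, CHRM2 at 1.61 and GPR26 at 1.10 to HTR2A at 0.0655. In parental cells HTR2A led with 7.69 TPM, followed by GRM2 at 0.272, GPR12 at 0.253, NTSR1 at 0.228 and DRD5 at 0.0304, and CHRM2 and GPR26 were listed at 0. HTR2A was still first in YFP-negative at 2.58 TPM, ahead of GPR12 at 1.71 and GRM2 at 1.65. From YFP-low upward GPR12 was first and GRM2 second. As TPM carries no read number, neighbours such as NTSR1 and DRD5 in YFP-high, or GRM2 and GPR12 in parental cells, have no counting interval on this scale. E2F1 was at 950 TPM in YFP-high.

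YFP-negative cells already differed from parental cells in several of these receptors. The choice of genes did not name this comparison, but it read both libraries, so the values below are a description too. As sorting of the parental cells is not stated, carrying the construct and sorting cannot be told apart here. GPR12 was 6.72-fold higher in YFP-negative (4.75 to 9.76) and GRM2 6.01-fold higher (4.02 to 9.30), and 2.15% of all analysed genes were called higher. HTR2A was 3.00-fold lower (2.62 to 3.45), and 2.93% of all analysed genes were called lower. NTSR1 had a level 2.69-fold lower (1.30 to 5.99) with a log2 ratio of -0.44, which missed the size rule. DRD5, CHRM2 and GPR26 had 4 reads or fewer in either library, and no difference was detectable at this depth. E2F1 was 1.23-fold higher in YFP-negative than in parental cells (1.19 to 1.27). The median log2 ratio was 0.06 over the 7 receptors and -0.01 over all genes. The bone-lineage marker sum was also lower in YFP-negative than in parental cells, mostly through COL1A1 at 1254 against 3271 CPM, and its part in the receptor differences was not tested.

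YFP-high against YFP-negative uses the YFP-negative library as well, so it and the comparison above are not independent. With parental cells as the baseline instead, 6 receptors were called higher in YFP-high and HTR2A lower, where 21.3% of all analysed genes were higher and 14.9% lower. GPR12 was 105-fold higher (76.2 to 150), GRM2 60.7-fold (41.8 to 91.7) and NTSR1 54.5-fold higher than in parental cells. DRD5 had a ratio of 370 (102 to 3059) against 2 parental reads. Parental cells had 0 reads of CHRM2 and GPR26; set against the 3-read floor CHRM2 was at least 90.1-fold and GPR26 at least 129-fold higher, and the counting intervals began at 72.7 and 104. HTR2A was 108-fold lower (49.6 to 296).

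**Figure D3:**
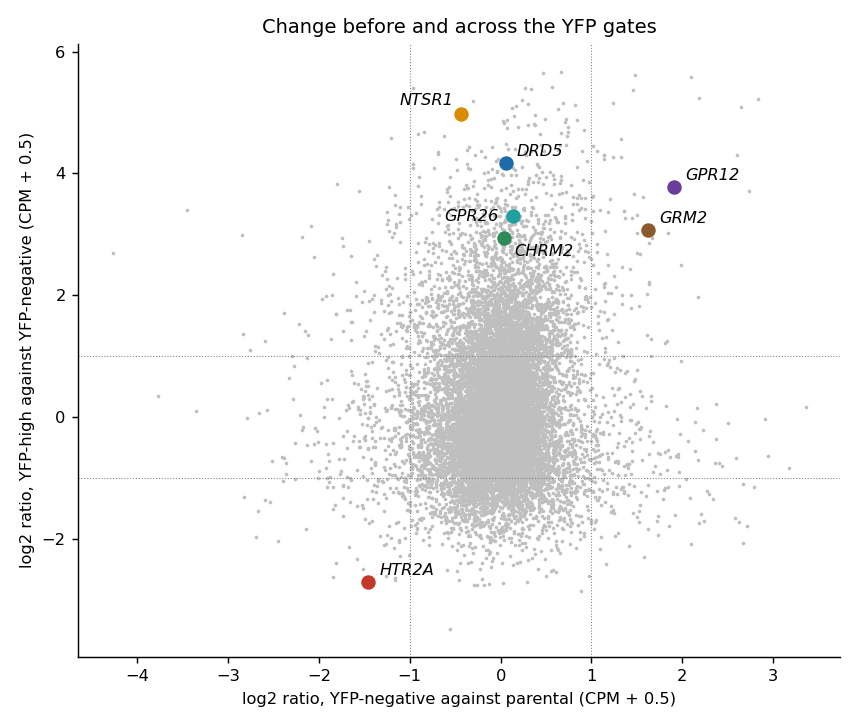
Log2 ratio of YFP-negative against parental (horizontal) and of YFP-high against YFP-negative (vertical), both on CPM + 0.5, for the 15109 analysed genes in grey and the 7 receptors in colour; dotted lines mark 2-fold. The axes share the YFP-negative library. GPR12 and GRM2 lie to the upper right, HTR2A to the lower left, and DRD5, CHRM2, NTSR1 and GPR26 above the middle.

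For each receptor the 3 genes with the most similar course were found by the root mean square difference of their 4 log2 ratios against YFP-negative, over the 5 libraries. DRD5 was closest to USP18 (0.18), an enzyme of the interferon response, BARX2 (0.20), a homeobox factor, and SLC6A11 (0.20), a GABA transporter. CHRM2 was closest to FLJ44511 (0.08), the endocytic receptor LRP2 (0.10) and LPPR5 (0.13). GPR26 was closest to GPR123 (0.09), an adhesion-type receptor, the NOTCH ligand DLL4 (0.11) and the protein disulphide isomerase PDIA2 (0.14). For CHRM2 and GPR26 small differences come easily, since most of their ratios are near 0.

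GRM2 was closest to the potassium channel subunit KCNG3 (0.19), the dendritic cell marker CD83 (0.25) and the bicarbonate transporter SLC4A4 (0.27). GPR12 was closest to the GABA receptor subunit GABRD (0.40), the drug efflux pump ABCG2 (0.44) and KCNG3 (0.46). KCNG3 thus stood near both, with 2.71, 11.0, 44.5, 85.4 and 93.5 CPM from parental to YFP-high. NTSR1 was closest to the LIM homeobox gene LHX3 (0.26), the growth factor GDF10 (0.36) and CD99 (0.39), whose reads are uncertain because it lies in the pseudoautosomal region. LHX3 had 0, 1, 8, 12 and 899 reads. HTR2A was closest to Metazoa_SRP (0.15), a repeated RNA family whose reads are uncertain, the noncoding RNA MIAT (0.29) and the growth factor binding protein IGFBP5 (0.30). IGFBP5 had 322 CPM in parental and 13.9 in YFP-high cells. Within the set, CHRM2 and GPR26 were the closest pair (0.40), then GPR12 and GRM2 (0.56). With TPM in place of CPM, 7 of the 21 nearest genes were the same, and 0 of the 3 for each of DRD5, CHRM2 and GPR26. GPR12 kept 1 of 3, GABRD, and KCNG3 was then among the nearest genes of GRM2 but not of GPR12.

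Relatives of the receptors by ligand gave mixed values in YFP-high against YFP-negative, where 20.5% of all analysed genes were called higher and 11.3% lower. Of the other dopamine receptors, DRD1 and DRD2 passed the filter and both were called higher, DRD2 at 61.7-fold (43.9 to 89.4) with 16, 34, 90, 204 and 1606 reads. DRD1, which like DRD5 couples to the stimulatory G protein, was 9.51-fold higher (8.14 to 11.2). Its levels were 18.9, 2.19, 1.06, 1.24 and 20.9 CPM, so YFP-high was close to parental and the 3 lower gates were the low ones. Of 12 serotonin receptors listed, 9 were below the filter and could not be called. Of the 2 besides HTR2A that passed it, 0 were called, and so few genes cannot be set apart from the shares of all genes. HTR1D and HTR2C both had log2 ratios of -0.97, just under the rule, and with total-count scaling both were called lower.

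CHRM4, the other muscarinic receptor that lowers cyclic AMP, was 4.36-fold higher (3.89 to 4.89), and CHRM3 had a log2 ratio of -0.24. GRM8, a glutamate receptor that lowers cyclic AMP, was 9.94-fold higher (8.79 to 11.3), from 3.45 to 34.3 CPM, and 10.7 CPM was already present in YFP-low. SORT1, a sorting receptor that also binds neurotensin, was 2.31-fold higher (2.27 to 2.36) and was not called with total counts. GPR3, the close relative of GPR12, had 7.04, 18.7, 31.7, 41.9 and 37.8 CPM. Its log2 ratio of 1.00 fell just short of the rule, which it passed with DESeq2 size factors.

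Among adrenergic, histamine and adenosine receptors 5 of 10 were called higher and 0 lower, with a median log2 ratio of 0.88. Over all analysed genes 20.5% were higher and 11.3% lower. HRH3 and ADRB3, 2 of the 5, passed the filter through YFP-high alone. HRH3, a histamine receptor that lowers cyclic AMP, was 91.4-fold higher (59.6 to 148). ADRA2B was 57.2-fold (38.6 to 88.8) and ADRA2C 11.3-fold higher (10.2 to 12.5); both bind adrenaline and lower cyclic AMP. Among other peptide receptors 14 of 18 were called higher and 0 lower (median 1.84), and 9 with a pseudocount of 2 CPM. Of the 14, OPRD1, GALR2, AVPR2, CCKBR, VIPR2, CRHR2 and PROKR2 passed the filter through YFP-high alone. For such genes a higher level there was a condition of their being analysed. The galanin receptor GALR1 was 63.0-fold higher (36.5 to 119), the nociceptin receptor OPRL1 26.4-fold (18.7 to 38.4) and the prokineticin receptor PROKR1 18.1-fold (14.4 to 23.0).

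In all, 94 other receptor-list genes were in the count table, of which 57 never reached 1 CPM and 37 were analysed. The 57 include NTS, the neurotensin ligand itself, and the 37 include the sorting receptor SORT1. Of the 37, 24 were called higher, 0 lower and 13 neither (64.9% higher), with a median log2 ratio of 1.60. All analysed genes gave 20.5% higher, 11.3% lower and a median of -0.04. Of the 37, 9 passed the filter through YFP-high alone and were all called higher, so the share is raised by the filter; over all genes 519 of 15109 (3.44%) passed that way. Total-count scaling gave 22 higher and 2 lower among the 37, TPM 23 and 1, and a pseudocount of 2 CPM 18 and 0. Over all genes total counts gave 2415 higher and 2865 lower, TPM 2792 and 2195, and 2 CPM 2495 and 1079. The main setting gave 3090 and 1707 over all genes. Among the receptors a filter of 5 CPM gave 16 and 0, but fewer genes pass it, so these are not out of 37. Relative to TMM, the median over all genes shifted by -0.26 with total counts and by -0.12 with TPM.

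**Figure D4:**
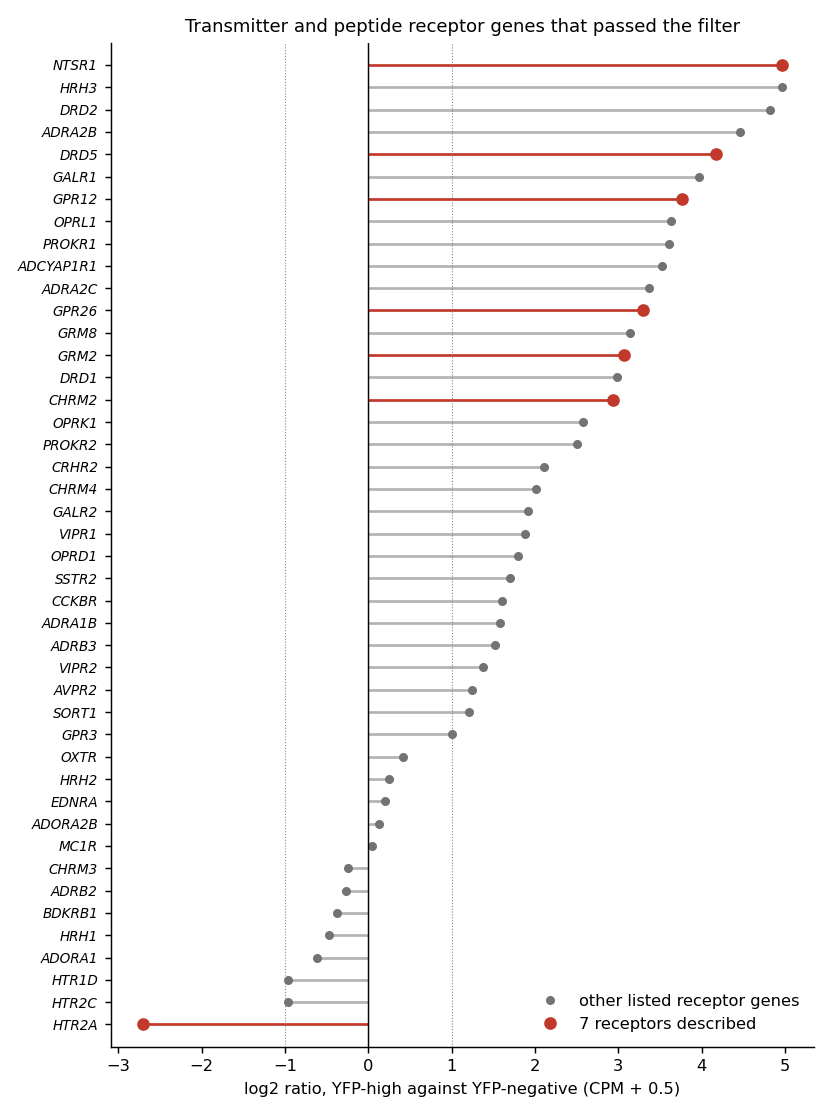
Log2 ratio of YFP-high against YFP-negative (CPM + 0.5) for the 44 listed transmitter and peptide receptor genes that passed the filter, sorted; the 7 receptors described are in red, and dotted lines mark 2-fold. NTSR1 and HRH3 head the list at 4.97, and HTR2A stands alone at -2.71 below HTR1D and HTR2C.

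Of the parts that carry the receptors' signal, G protein alpha subunits had 6 of 11 genes called higher and 1 lower, with a median of 1.25. Here and for the lists that follow, the shares to set beside the counts are the 20.5% higher and 11.3% lower of all analysed genes. GNAL, the stimulatory subunit of olfactory neurons and striatum, was 7.94-fold higher (7.58 to 8.32). GNAO1 was 5.62-fold (5.41 to 5.83) and GNAI1 3.67-fold higher (3.51 to 3.84); both encode subunits of the inhibitory class. Of the subunits that link receptors such as HTR2A and NTSR1 to phospholipase C, both named after their values were seen, GNAQ was the lower gene of the list at 2.92-fold (2.54 to 3.36), from 11.6 to 3.97 CPM. GNA11 was 2.56-fold higher (2.46 to 2.67), from 39.4 to 101 CPM. Beta and gamma subunits gave 1 call upward and 1 downward among 13 genes, GNB4 at 2.51-fold higher and GNG2 at 2.62-fold lower (1.98 to 3.51). GNG13 had a log2 ratio of 0.91 and passed the filter through YFP-high alone. The call of GNG2 ended with a pseudocount of 2 CPM and with TPM.

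Adenylyl cyclases and phospholipase C beta genes had 6 of 12 called higher and 1 lower (median 0.79). The 6 were all adenylyl cyclases. ADCY1 was 9.12-fold (8.74 to 9.53), ADCY9 9.11-fold and ADCY5 9.15-fold higher (8.04 to 10.4). ADCY1 had 28.0, 86.1, 195 and 256 CPM from YFP-negative to YFP-high, whereas ADCY5 had 3.18, 2.51, 3.17 and 29.1. The lower gene, named after its value was seen, was the phospholipase PLCB2, from 29.4 to 9.03 CPM. Cyclic AMP phosphodiesterases and protein kinase A subunits gave 6 calls upward and 0 downward among 12 genes (median 1.05). PDE8B was 13.9-fold (11.0 to 17.7) and PDE7A 4.43-fold higher, both of which break cyclic AMP down. PRKAR2B, a regulatory subunit of protein kinase A, was 7.45-fold higher (7.23 to 7.69).

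Receptor kinases, arrestins and RGS proteins, which switch signalling off, had 9 of 21 called higher and 3 lower, with a median of 0.68. Of the 9, RGS6, named after its value was seen, passed the filter through YFP-high alone. RGS19 was 3.59-fold (3.30 to 3.91), the receptor kinase GRK4 3.58-fold and the receptor kinase ADRBK2 3.34-fold higher. The lower genes, named after their values were seen, were RGS20 at 6.89-fold (4.28 to 11.7), RGS14 at 3.53-fold and RGS4 at 3.27-fold; with a pseudocount of 2 CPM 7 genes of this list were higher and 0 lower. Of 12 genes known to respond to cyclic AMP, 5 were called higher and 3 lower (median 0.28). The nuclear receptors NR4A2 and NR4A3 were 11.1-fold (10.2 to 12.1) and 9.92-fold higher, and the kinase SIK1 5.52-fold. The lower ones, named after their values were seen, were DUSP1, CITED2 and PPARGC1A, with log2 ratios of -1.23, -1.24 and -1.16.

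On the side of transmitter supply 5 of 17 genes were called higher and 2 lower (median -0.09), against 20.5% and 11.3% of all genes. Of the higher genes, SLC6A2, SLC5A7 and SLC6A3, the last named after its value was seen, passed the filter through YFP-high alone. A higher level there was a condition of their being analysed, so the share called higher is raised by the filter. SLC18A3, which loads acetylcholine into vesicles, was 44.7-fold higher (34.3 to 59.2). SLC5A7, which takes up choline, had 146 reads in YFP-high and 0 in YFP-negative. CHAT, which makes acetylcholine and is named after its value was seen, had 0.735 CPM in YFP-high and was below the filter. SLC6A2, the noradrenaline transporter, had 342 reads against 4, a ratio of 112 (43.2 to 412). SLC1A3, a glutamate transporter again named after seeing its value, was 2.91-fold lower (2.63 to 3.22). Over the 98 analysed genes of these signalling and supply lists 38.8% were called higher and 11.2% lower (median 0.52), against 20.5% and 11.3% of all genes. Genes that passed the filter through YFP-high alone, such as SLC6A2, raise the share called higher here too. The medians of the beta and gamma subunits and of transmitter supply lie nearer to 0 than the 0.26 by which total-count scaling moves all genes.

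The genes next to the receptors mostly did not share their course. Of 14 nearest genes with counts, 1 on each side by RefSeq order in GRCh38.p14, 2 were called higher, 0 lower, 10 neither, and 2 were below the filter. Over all analysed genes 20.5% were higher and 11.3% lower, and so few neighbours cannot be set apart from these shares. USP12, next to GPR12, had 49.5, 82.6, 143, 207 and 181 CPM and a log2 ratio of 1.12. CPXM2, next to GPR26, had 21, 10, 15, 27 and 226 reads and a log2 ratio of 2.70, and passed the filter through YFP-high alone. Around HTR2A, ESD and SUCLA2 had log2 ratios of -0.36 and 0.17, and around NTSR1, SLCO4A1 and C20orf20 had 0.81 and -0.35. WDR1, beside DRD5, had 0.34. No label states the strand setting of the counting, so reads of overlapping genes cannot be told apart. DRD5 overlaps SLC2A9, which had 5, 6, 20, 15 and 42 reads from parental to YFP-high against 2, 4, 34, 125 and 599 for DRD5. HTR2A overlaps HTR2A-AS1, NTSR1 overlaps NTSR1-AS1, and CHRM2 overlaps LOC349160 and KRT8P51, none with a row of its own name in the count table; MIR490, which also overlaps CHRM2, had 0 reads.

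The start windows shown above, and those of the other 3 receptors, were set against 35116 RefSeq windows of the same length. Searches covered both strands, and overlapping matches of a motif were counted separately. The E2F site in its 8-base form (TTTCCCGC, TTTCGCGC, TTTGCCGC or TTTGGCGC) was in 3.31% of all windows and in 0 of the 7. Its 7-base core (the same letters without the first T) was in 13.0% of all windows and in 1 of the 7, DRD5, whose 2 matches on the minus strand begin 223 and 93 bases before the start and read GCGCCAA in the printed direction. The GC box (GGGCGG) was in 45.0% of all windows and in 6 of the 7, with 7 matches for GPR12, 6 for GRM2, 3 for DRD5, 2 for NTSR1, 1 each for CHRM2 and GPR26, and 0 for HTR2A. The cyclic AMP response element (TGACGTCA, 1.85% of windows) and TATAAA (11.5%) were in 0 of the 7.

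The windows fell into GC-rich and ordinary ones. GC content was 83.3% for GPR12, 81.7% for NTSR1, 81.0% for GPR26, 75.3% for DRD5 and 74.7% for GRM2, against a median of 58.7% over all windows. HTR2A had 54.7% and CHRM2 48.7%. CpG dinucleotides numbered 49 in GPR12, 45 in NTSR1, 44 in GPR26, 34 in GRM2 and 32 in DRD5, with a median of 14 over all windows, against 10 in CHRM2 and 9 in HTR2A. The GC-rich windows belong to receptors with early, gradual and late increases, and CHRM2 was higher in YFP-high with an ordinary one. A match of letters is not evidence of binding, and no binding data were used here.

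**Figure D5:**
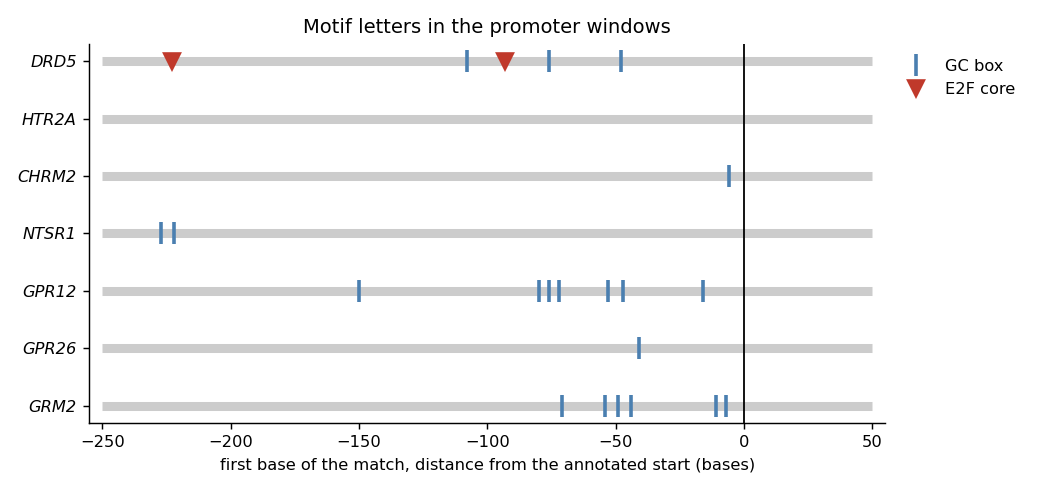
Position of motif letters in the 7 start windows, as the distance in bases of the first base of each match from the annotated start; blue bars are GC boxes and red triangles E2F cores. GPR12 and GRM2 carry the most GC boxes, most of them within 80 bases before the start, and DRD5 alone carries E2F cores.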

How the data were processed

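RNA of 5 U2OS libraries was sequenced, 1 library per group. The authors deposited whole-number read counts for 27992 gene names, together with TPM for 24519 gene names that sum to 1000000 per library, per the file headers and values. Build hg19, the aligner HISAT2 2.0.3, the counter HTSeq 0.6.0, Trimmomatic 0.36 and CASAVA 1.8.2 with bcl2fastq are listed, without settings, per the submitters' processing notes. The tool behind the TPM, the gene annotation and the strand setting were not stated there. Rows without a gene name stayed out of all totals; gene rows held 75.7% to 77.7% of counted reads.

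Counts were scaled by TMM (edgeR 4.0.16, R 4.3.3; factors 0.904 to 1.09). Folds are ratios of CPM without a pseudocount, with exact Clopper-Pearson 95% intervals. Intervals and floors cover counting error only, and PCR copies of a molecule make them too narrow. The size rule was tested on simulated data. With 1 library per group no test across genes was made. The alternatives covered scaling (total counts, DESeq2 1.42.0 size factors), filters (5 CPM, none), pseudocounts (2 and 0.1 CPM), TPM, a 1.5-fold rule and the parental baseline. Near copies were sought with BLAST 2.17.0 in GENCODE transcripts.

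The receptors and lists were chosen with earlier results of these data known. Named genes are the 7 receptors, E2F1, the 3 other genes of each of 15 lists with the largest ratio of YFP-high to YFP-negative in either direction, the 3 most similar genes per receptor, and the nearest counted gene on either side. A few listed genes are not reported here by name. Start windows matched 7 of 7 receptors by symbol in RefSeq. Scripts ran in Python 3.11.15 with scipy 1.17.1, pandas 2.3.3, numpy 2.4.6 and matplotlib 3.10.9.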

Additional observations from a re-analysis of the deposited data

How the results depend on the processing

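Of 54 recomputed counts of receptors called, list totals and similar genes, 52 stayed within 1.5 times their value. Receptors called between YFP-high and YFP-medium went from 4 to 2 with a filter of 5 CPM, which CHRM2 and GPR26 cannot pass, and the nearest genes shared with the deposited TPM were 7 of 21. No receptor call changed direction. Of 60 recomputed list counts 7 moved past 1.5 times, and of 28 shares of the YFP-high ratio reached at lower gates 14 did, GPR12 and GRM2 not among them. A receptor log2 ratio counted as moved when it shifted by more than the distance from the middle to an end of its counting interval on the log2 scale. Of 210 such ratios 41 moved, 21 with a pseudocount of 2 CPM, 13 with 0.1 CPM, 4 with TPM and 3 with total counts. Genes with few reads have wide intervals, so large shifts of CHRM2 in YFP-high against YFP-negative did not count as moved. A pseudocount of 2 CPM ended the calls of HTR2A in YFP-low, DRD5 in YFP-medium and GRM2 in YFP-negative against parental. A pseudocount of 0.1 CPM, or a 1.5-fold rule, added DRD5 in YFP-low, CHRM2 in YFP-medium and HTR2A in YFP-high against YFP-medium. The receptors with few reads depended most on the pseudocount: over the alternatives CHRM2 ranged from 1.43 to 4.98 on the log2 scale in YFP-high against YFP-negative, GPR12 from 3.32 to 3.93.

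The counts over all genes depended more on the setting. In YFP-high against YFP-negative 3090 genes were higher and 1707 lower (64.4% of the called higher), and with total counts 2415 and 2865 (45.7%), with a pseudocount of 2 CPM 2495 and 1079, and with the 1.5-fold rule 4429 and 3832 (53.6%). In YFP-medium, 1475 and 334 (81.5%) became 1084 and 784 (58.0%) with total counts, 1167 and 139 with 2 CPM, 1761 and 556 with 0.1 CPM, 1274 and 563 (69.4%) with TPM and 2866 and 1790 (61.6%) with 1.5-fold. In YFP-low, 319 and 7 (97.9%) became 241 and 16 with total counts, 299 and 4 with 5 CPM, 211 and 1 with 2 CPM, 451 and 54 with 0.1 CPM, 311 and 70 (81.6%) with TPM and 1099 and 202 (84.5%) with 1.5-fold. In YFP-high against YFP-medium, 1398 and 201 (87.4%) became 933 and 80 with 2 CPM, 1604 and 420 with 0.1 CPM and 2691 and 1642 (62.1%) with 1.5-fold. In YFP-negative against parental, 325 and 442 became 161 and 250 with 2 CPM and 998 and 1363 with 1.5-fold. In YFP-high against parental, 3220 and 2249 (58.9%) became 2648 and 3192 (45.3%) with total counts and 4546 and 4252 (51.7%) with 1.5-fold. The cause of these shifts was not tested. Depth limits DRD5 in parental and YFP-negative, CHRM2 up to YFP-low and GPR26 up to YFP-medium, with 4 reads or fewer each.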
